A study of Mus musculus with 6 samples.

Results

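The 10 genes described here encode transcription factors and bridging proteins that work together on the control elements of erythroid genes: Gata1, Gata2, Klf1, Tal1, Zfpm1, Lmo2, Ldb1, Gfi1b, Lyl1 and Tcf3. They were taken by name from the 55487 genes of a count table, by symbol in the GENCODE M21 annotation, and all 10 were found. The RNA came from megakaryocyte-erythroid progenitors, the marrow cells from which red cells and platelets descend. They were sorted from C57BL/6 mice of wild type genotype at an age of 8 weeks. The study asked how a fast of 6 h acts on the formation of red blood cells. There were 3 control libraries and 3 libraries of fasted mice, with no other difference in strain, genotype or age in the labels. The labels do not say whether a library held 1 mouse or a pool, so p-values measure only the spread between these libraries.

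GATA1 and GATA2 are zinc finger proteins that bind the same short DNA word. In stem and early progenitor cells GATA2 holds many of these sites, and as cells enter the erythroid path GATA1 takes its place and turns the Gata2 gene down. TAL1, or its relative LYL1, pairs with an E protein such as the products of Tcf3 to bind a nearby E-box, and LMO2 and LDB1 join this pair to the GATA factor and loop enhancers to promoters. ZFPM1 (FOG1) is the cofactor that GATA1 needs for much of its work, GFI1B is a repressor that recruits histone demethylase, and KLF1 binds CACCC-type sites in globin and red cell genes.

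Control libraries held between 22445970 and 30246110 gene counts, and fasted libraries between 12797144 and 18225191. Odorant and vomeronasal receptor genes, which are silent in blood cells, gave a background equal to 3.90% to 8.60% of control counts and 11.5% to 14.6% of fasted counts if it holds over all exons. Genes were therefore scaled and tested only when their mean count was at least 5 times this background, which left 10635 genes. Values below are CPM, the usual scaling of counts to a common library total, here the total of those genes after TMM, a method that sets library sizes so that most genes balance. All 9 markers of megakaryocyte-erythroid progenitors were above this limit, among them Kit, Epor and Tfrc and also the members Gata1 and Klf1. They summed to 7814, 7467 and 4554 CPM in control and to 5967, 7256 and 8829 CPM in fasted libraries. So were all 16 markers of granulocytes and monocytes, which summed to 4056, 12789 and 19378 CPM in control libraries 1, 2 and 3 and to 4943, 3245 and 1816 CPM in fasted libraries 1, 2 and 3. In bulk RNA, fewer cells of a type and less RNA per cell cannot be told apart.

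No factor gene was called in the main test, which does not show that none changed. Of the 10, 9 were tested, and 0 passed edgeR's quasi-likelihood test at an adjusted p under 0.05. This was also true of the whole table, where 0% of 10635 genes passed (smallest adjusted p 0.0903) and 19.8% had an unadjusted p under 0.05. None of the 9 factor genes had an unadjusted p that low. DESeq2 on the same genes called 4.72% of them and limma-voom called 0, and neither called a factor gene (0 of 9 also had an unadjusted DESeq2 p under 0.05). In the main test 5 of the 9 had lower and 4 had higher mean values after fasting, with a median log2 fold change of -0.05 against 0.02 over all genes tested.

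**Figure D1:**
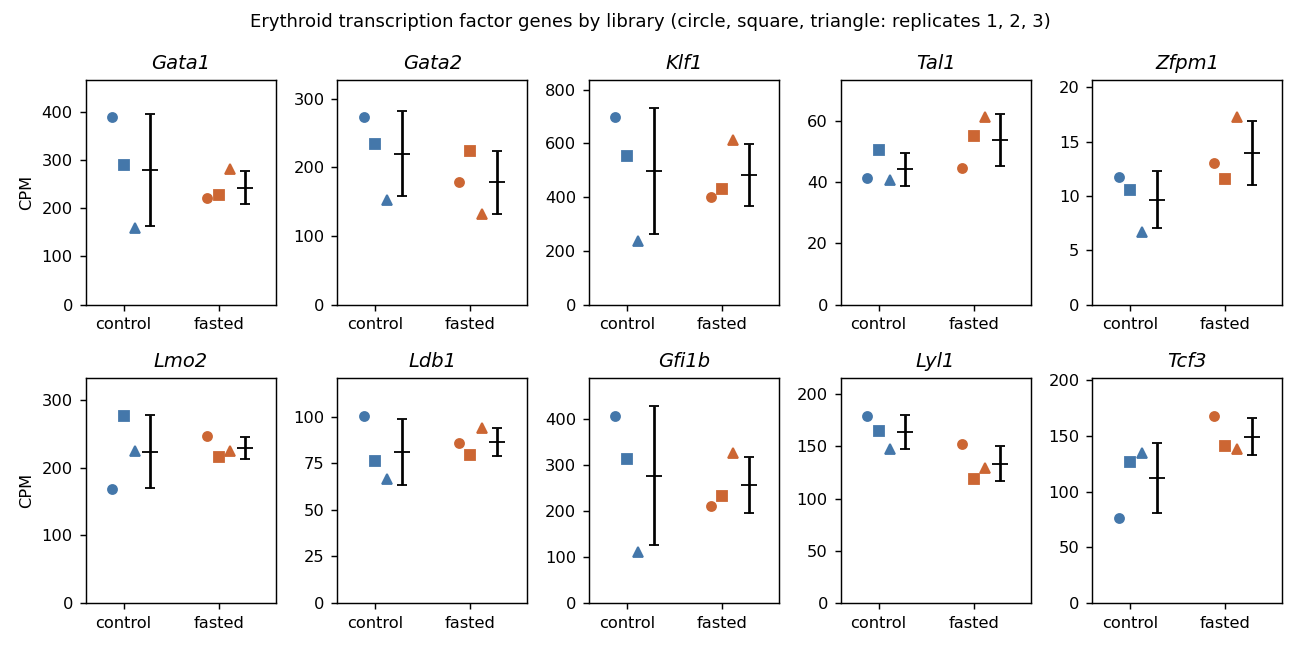
CPM of the 10 genes in each library (y axes start at 0); symbols are replicates 1, 2 and 3, and the black mark with bars is the mean ± SD of 3 libraries. Gata1, Klf1 and Gfi1b are spread widely among control libraries, and only Tcf3 has no overlap between the groups.

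Levels were compared per kilobase of exonic length, which is that of all annotated exons of a gene together and can exceed the length of a transcript. By this measure Klf1 was the most abundant of the set, at 319 CPM per kilobase ± 108 (SD over the 6 libraries). It stood above every other member in each library. Gfi1b (146 ± 57.0), Gata1 (107 ± 32.4) and Lmo2 (105 ± 16.6 CPM per kilobase) followed, and their ranges overlapped. Gata1 was above Lmo2 in only 2 of 6 libraries. Lyl1 came next at 73.1 CPM per kilobase (range 58.6 to 88.3) and was above Gata2 (36.9 ± 9.95) in all 6 libraries without overlap. Gata2 and Tcf3 (32.4 ± 7.52 CPM per kilobase) could not be ordered, since Gata2 was higher in 3 of 6 libraries. Ldb1 (18.2 ± 2.69), Tal1 (11.1 ± 1.88) and Zfpm1 (3.37 ± 0.982 CPM per kilobase) were lowest, and their ranges did not overlap one another, although Tcf3 fell below Ldb1 in 1 of 6 libraries. Per kilobase of exonic length, the DNA-binding partner Tal1 and the cofactor Zfpm1 were thus the scarcest in this set.

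Gata1, Klf1 and Gfi1b followed one another most closely over the 6 libraries of all 45 pairs of members. After centring log2 CPM on its mean over the libraries, the root mean square difference was 0.106 between Klf1 and Gfi1b, 0.157 between Gata1 and Klf1 and 0.235 between Gata1 and Gfi1b, while Gfi1b and Tcf3 were farthest apart at 0.849. Because these genes move together, a stretch of 150 promoter bases is shown for each, from RefSeq on GRCm38.p6. Those of Gfi1b and Gata1 end at the RefSeq start, and that of Klf1 ends 54 bases before it, where the M21 gene begins. The stretches are Klf1 at chr8:84901778-84901927 (plus strand), Gfi1b at chr2:28621983-28622132 (minus strand) and Gata1 at chrX:7967911-7968060 (minus strand), the last upstream of the RefSeq start and inside the longer M21 gene model. Capitals mark matches on either strand to a GATA word, which is AGATAA with A or T as its first letter and A or G as its last, or to the CACCC-type word CCNCNCCC, which KLF proteins are known to bind.
Klf1: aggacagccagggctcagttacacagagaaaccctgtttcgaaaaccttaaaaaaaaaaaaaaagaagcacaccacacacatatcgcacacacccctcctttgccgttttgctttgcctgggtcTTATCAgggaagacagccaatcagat
Gfi1b: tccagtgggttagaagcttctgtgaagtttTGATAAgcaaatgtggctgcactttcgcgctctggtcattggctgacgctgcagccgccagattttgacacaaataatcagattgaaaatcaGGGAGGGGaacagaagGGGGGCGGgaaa
Gata1: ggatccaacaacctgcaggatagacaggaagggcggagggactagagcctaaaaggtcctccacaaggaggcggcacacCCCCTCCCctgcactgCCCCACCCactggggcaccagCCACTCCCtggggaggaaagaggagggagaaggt

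The stretch before Klf1 held 1 GATA word and that before Gfi1b 1 GATA word and 2 CACCC-type words. The stretch before Gata1 held 3 CACCC-type words and no GATA word. In full windows of 250 bases before and 50 after a start, which the table gives for 9 of the 10 members and not for Lmo2, a GATA word was found for Gfi1b, Klf1, Ldb1 and Tal1, and a CACCC-type word for every one but Klf1. Counted by window, since some members have several, 4 of 13 held a GATA word and 11 of 13 a CACCC-type word. Over all 32851 RefSeq windows of that length, 29.8% held a GATA word and 49.5% a CACCC-type word, so the share for the GATA word was near that of all windows. A match of letters says nothing about binding in these cells.

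Gata1 (ENSMUSG00000031162.14, chromosome X, 7959260 to 7978071, minus strand) had 389.7, 289.8 and 158 CPM in control libraries 1, 2 and 3. In fasted libraries 1, 2 and 3 it had 221, 227 and 282 CPM, an order of libraries kept for every gene below. The fasted values all lay inside the control range, which spanned 2.46-fold. The mean was 279 CPM ± 116 (SD, n = 3) in control and 243 CPM ± 33.7 (SD, n = 3) in fasted libraries, a log2 fold change of -0.20 (95% interval -0.88 to 0.48, edgeR adjusted p = 0.729). Gata1 has no exonic overlap with another gene in M21, as is true of every member but Ldb1 and Lyl1. Among 5009 genes with a mean of at least 50 CPM, those closest to Gata1 over the 6 libraries were Rbm43, Lrrc14, Naa80 and Pidd1, with root mean square differences of 0.122 to 0.134 in centred log2 CPM.

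Gata2 (ENSMUSG00000015053.14, chromosome 6, 88193891 to 88207032, plus strand), whose product GATA1 replaces during erythroid commitment, had 273, 234 and 153 CPM in control and 179, 224 and 132 CPM in fasted libraries. Fasted library 3 was the lowest of all, and the groups overlapped. The log2 fold change was -0.30 (95% interval -0.87 to 0.27, edgeR adjusted p = 0.518). Genes close to Gata2 over the libraries by the same measure included Uba7, 4833439L19Rik and H2-Q7 (0.138 to 0.166).

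The balance of the GATA factors can be read inside each library, where scaling between libraries plays no part. The log2 ratio of Gata2 to Gata1 counts per kilobase ran at -1.66, -1.45 and -1.20 in controls, then -1.45, -1.17 and -2.24 after fasting. Gata1 thus had more counts per kilobase in all 6. Fasted library 3 had the lowest ratio and fasted library 2 the highest. The difference of means was -0.18 (p = 0.9, two-sided exact permutation test, adjusted p = 1 over 9 ratios), and without fasted library 3 it was 0.13. For 3 against 3 libraries the smallest possible p is 0.1, so none of the 9 ratios could pass. Spi1, whose product PU.1 opposes GATA1 in the choice between myeloid and erythroid fates, had log2 ratios to Gata1 of -1.78, -0.91 and 0.49 in controls and -0.39, -0.70 and -2.31 after fasting. Only in control library 3, which had the highest sum of granulocyte and monocyte markers, was Spi1 above Gata1 per kilobase. The part of such cells in these values was not tested.

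Zfpm1 (ENSMUSG00000049577.15, chromosome 8, 122282141 to 122337251, plus strand) was the one member below the limit for testing, at 4.43 times background. It had 11.7, 10.6 and 6.67 CPM in control and 13.0, 11.6 and 17.3 CPM in fasted libraries, and background at the measured rate would make up 22.3% of its control counts and 28.9% of its fasted counts. Fasted library 2 fell just below control library 1, so the groups overlapped. In a fit over all 36508 genes kept by edgeR's filter, its log2 fold change was -0.03 (SE 0.30) with factors from all of these genes and 0.53 (SE 0.31) with factors from genes above background (edgeR adjusted p = 0.947 and 0.205), so the scaling set its sign. Zfpm1 lay below the median log2 fold change over all genes in both settings, which was 0.32 and 0.82. Over the 10635 genes above background the median was -0.50 in the first setting. It was 0.02 in the main fit, which has the factors of the second setting. Zfpm1 lay above both of these. With the expected background counts subtracted, the log2 ratio of its mean CPM, fasted over control, was 0.37. The ratio of Zfpm1 to its partner Gata1 does not depend on the scaling between libraries. Its log2 values were -5.58, -5.30 and -5.09 in controls and -4.60, -4.81 and -4.55 after fasting, which did not overlap. The difference of 0.66 gave p = 0.1 (two-sided exact permutation test, adjusted p = 0.9 over 9 ratios). After the expected background counts were subtracted it was 0.56, with the same unadjusted p in the exact test. Without that subtraction it was the only one of the 9 ratios whose groups did not overlap. Among single genes tested, the groups did not overlap for 14.4% with fasted higher and for 12.9% with fasted lower.

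**Figure D2:**
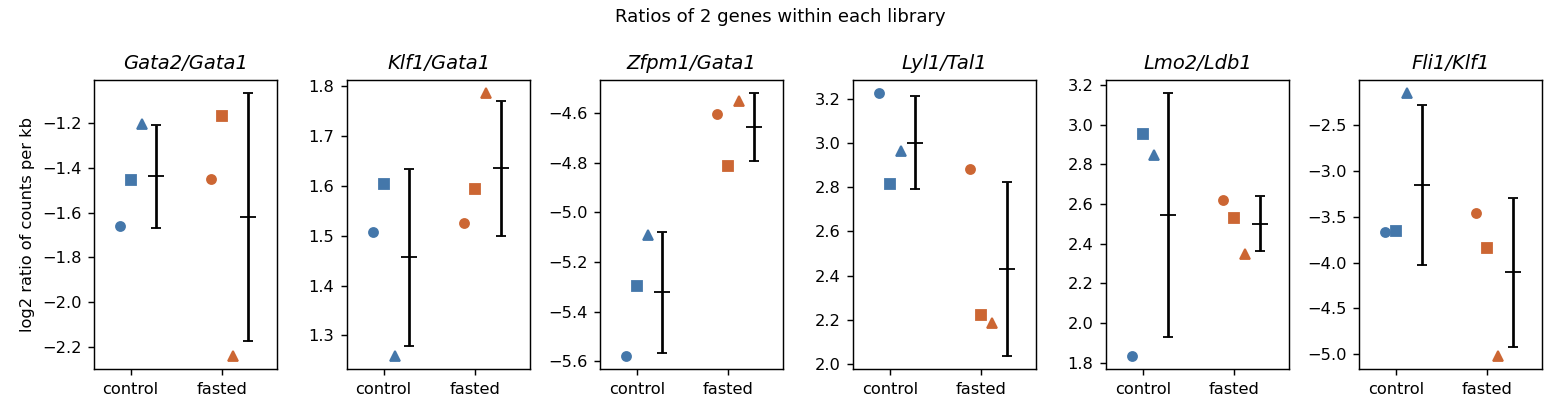
Log2 ratio of counts per kilobase of 2 genes within each library, with symbols and the mean ± SD of 3 libraries as in the plot of CPM by library; each panel has its own y range. The Zfpm1 to Gata1 ratios are -5.58 to -5.09 in control and -4.81 to -4.55 in fasted libraries, while the other 5 ratios shown overlap between the groups.

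Among the helix-loop-helix genes, Tal1 (ENSMUSG00000028717.12, chromosome 4, 115056426 to 115071755, plus strand) had 41.2, 50.4 and 40.5 CPM in control and 44.4, 55.1 and 61.1 CPM in fasted libraries. Control library 2 lay above fasted library 1. The log2 fold change of this central DNA-binding subunit was 0.28 (95% interval -0.11 to 0.67, edgeR adjusted p = 0.389). Its close relative Lyl1, which can stand in for Tal1 in adult blood formation, differed in the other direction. Lyl1 (ENSMUSG00000034041.5, M21 position chromosome 8, 84701457 to 84704715, plus strand) had 179.5, 165 and 147 CPM in control and 152, 119 and 129 CPM in fasted libraries. Fasted library 1 alone reached into the control range. The mean was 164 CPM ± 16.3 (SD, n = 3) in control and 133 CPM ± 16.9 (SD, n = 3) in fasted libraries, a log2 fold change of -0.30 (95% interval -0.61 to 0.02, edgeR unadjusted p = 0.0609 and adjusted p = 0.272), the smallest p of the set. Lyl1 was the only member to pass in the fit over all 36508 filtered genes (edgeR adjusted p = 0.0456), where 4.97% of genes passed, 1.15% higher and 3.82% lower after fasting, and the genes above background were shifted down as a whole. In the same 36508 genes with factors from genes above background it did not pass (-0.30, edgeR adjusted p = 0.141), nor did any other member, while 14.4% of genes were called there, 13.7% higher and 0.698% lower. Lyl1 also passed at 2 times background (7.83% of genes called, 2.46% higher and 5.37% lower) and, with Gata2, when no filter on low counts was used (5.38% called, 1.19% higher and 4.19% lower). In its M21 model of 1800 bases Lyl1 overlaps Nfix on the opposite strand by 4 exonic bases. The counted version has 2033 bases, and its overlap was not measured.

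Within libraries, Lyl1 exceeded Tal1 per kilobase by a log2 ratio of 3.23, 2.82 and 2.97 in controls and 2.88, 2.22 and 2.19 after fasting. That corresponds to a geometric mean of 8.02-fold in control and 5.39-fold in fasted libraries. Fasted library 1 lay within the control range. The difference of -0.57 gave p = 0.2 (two-sided exact permutation test, adjusted p = 0.9 over 9 ratios).

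Tcf3 (ENSMUSG00000020167.14, chromosome 10, 80409514 to 80433647, minus strand), which encodes the E proteins E12 and E47, had 75.9, 127 and 134 CPM in control and 168, 141 and 138 CPM in fasted libraries. All 3 fasted values lay above all control values, and control library 1 stood well below the rest. Groups that did not overlap with fasted higher were found for 14.4% of all genes tested. The mean was 112 CPM ± 31.7 (SD, n = 3) in control and 149 CPM ± 16.5 (SD, n = 3) in fasted libraries, a log2 fold change of 0.41 (95% interval -0.06 to 0.89, edgeR adjusted p = 0.308). Without control library 1 it was 0.19.

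Both bridging proteins had close mean values in the 2 groups. Lmo2 (ENSMUSG00000032698.15, chromosome 2, 103957986 to 103981878, plus strand), a LIM protein that binds TAL1 and GATA factors but not DNA, had 169, 277 and 225 CPM in control and 248, 216 and 225 CPM in fasted libraries. The fasted values lay within the control range, and the log2 fold change was 0.04 (95% interval -0.36 to 0.43, edgeR adjusted p = 0.921). Ldb1 (ENSMUSG00000025223.15, chromosome 19, 46031570 to 46045214, minus strand), whose product dimerises to hold enhancer and promoter together, had 101, 76.1 and 66.6 CPM in control and 85.7, 79.3 and 94.0 CPM in fasted libraries. Its groups overlapped too, with a log2 fold change of 0.09 (95% interval -0.30 to 0.47, edgeR adjusted p = 0.793). Of its exons, 3.84% overlap Pprc1 on the opposite strand, with no strand setting stated in the labels. The log2 ratio of Lmo2 to Ldb1 was 1.83 in control library 1 and between 2.35 and 2.95 in the other 5 libraries, with a difference of means of -0.04.

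Gfi1b and Klf1 had the widest spread. Gfi1b (ENSMUSG00000026815.14, chromosome 2, 28609450 to 28621982, minus strand) had 408, 314 and 110.3 CPM in control libraries, a 3.70-fold range, and 212, 234 and 326 CPM in fasted libraries. A control range of at least 3-fold was found for 5.91% of genes tested, and Gfi1b was the only member with one. The log2 fold change was -0.11 (95% interval -1.26 to 1.04, edgeR adjusted p = 0.914). Klf1 (ENSMUSG00000054191.9, M21 position chromosome 8, 84901928 to 84905291, plus strand), the activator of adult globin and membrane genes, had 697, 554 and 238 CPM in control and 400.0, 431 and 612 CPM in fasted libraries. As for Gata1 and Gfi1b, control library 1 was the highest and control library 3 the lowest of all 6. The log2 fold change was -0.05 (95% interval -0.97 to 0.88, edgeR adjusted p = 0.960). The log2 ratio of Klf1 to Gata1 stayed between 1.26 and 1.79 in all 6 libraries, a narrower range than for the other 8 ratios.

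One library at a time could turn the sign for these genes. Without control library 3 the log2 fold changes of Gata1, Klf1 and Gfi1b were -0.51, -0.41 and -0.52, and without control library 1 they were 0.12, 0.28 and 0.28. Without control library 3, 5 of the 9 had an unadjusted p under 0.05, with Gata1, Gata2, Gfi1b and Lyl1 lower and Tcf3 higher, against 20.8% of all genes tested, and none passed after adjustment. For Gata1 the unadjusted p was 0.0205 and for Gfi1b 0.0356, with edgeR adjusted p = 0.187 and 0.211. Without fasted library 1 Lyl1 alone had an unadjusted p under 0.05, against 14.3% of genes. With RLE factors its unadjusted p was 0.0469 (edgeR adjusted p = 0.243), against 20.3% of genes under 0.05. In all, 7 of the 10 members were ordered control library 1 above 2 above 3, as were 24.3% of genes tested. Control library 3 was the lowest of all 6 for 6 of the 10 (18.3% of genes tested), and control library 1 the highest for 6 of the 10 (26.4%). Granulocyte and monocyte markers ran the other way among the controls, with 4056, 12789 and 19378 CPM. Their part in the order of the factor genes was not tested.

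**Figure D3:**
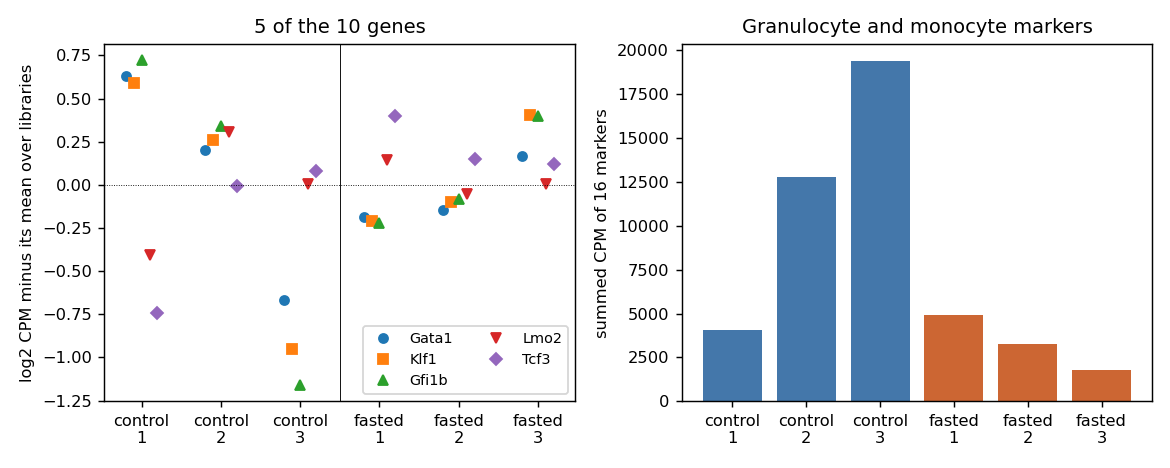
Left, log2 CPM of 5 members minus the mean over the 6 libraries, by library; right, summed CPM of 16 granulocyte and monocyte markers in the same libraries (bars from 0). Gata1, Klf1 and Gfi1b are lowest in control library 3, where the marker sum is 19378 CPM, and highest in control library 1, where it is 4056 CPM. The order does not hold over all libraries. Gata1 is higher in control library 2 (sum 12789 CPM) than in any fasted library (sums 1816 to 4943 CPM).

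The scaling between libraries shifted all members alike. When factors came from all 36508 filtered genes, most of them below 5 times background, the median log2 fold change of the 10635 genes above this limit moved from 0.02 to -0.50. All 10 members were then lower in fasted libraries, with a median of -0.55. Gata1 had -0.78 (SE 0.31, edgeR adjusted p = 0.118), Gata2 -0.84 (SE 0.30, edgeR adjusted p = 0.0850) and Lyl1 -0.83 (SE 0.23, edgeR adjusted p = 0.0456). In that fit 3 of 10 members had an unadjusted p under 0.05, against 28.6% of all genes.

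**Figure D4:**
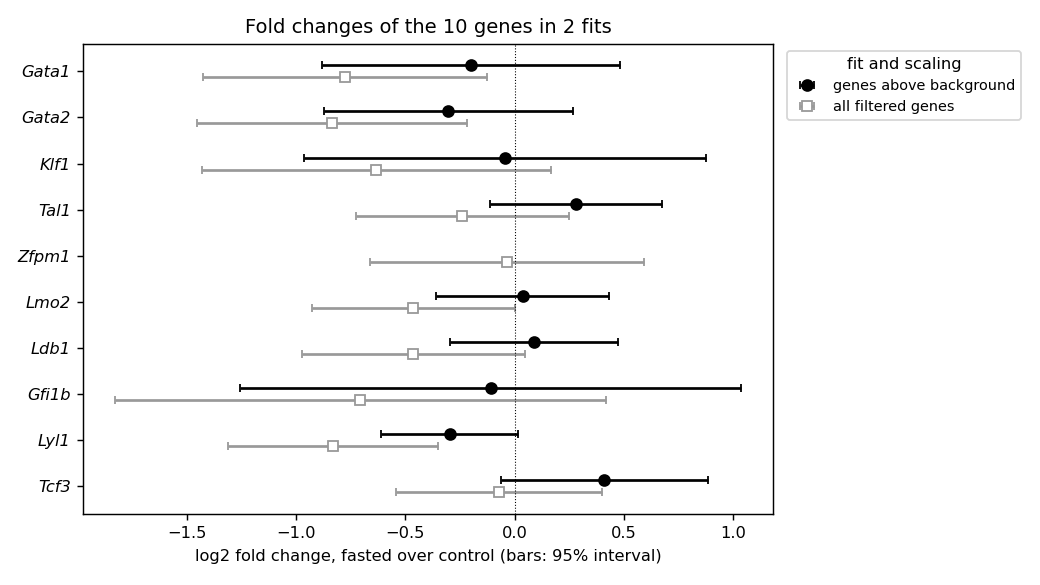
Log2 fold change of each gene with its 95% interval, in the fit of 10635 genes above background (filled circles) and in the fit of all 36508 filtered genes with their own factors (open squares); Zfpm1 is in the latter only. All intervals of the filled circles include 0, and the open squares lie to the left for all 9 genes that have both.

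Partner genes of the complex, a list of 31, had no called member among 30 tested. Of the 30, 16 had higher and 14 lower means after fasting, with a median log2 fold change of 0.02. The lowest values belonged to Lmo4, another LIM-only gene (-0.73, SE 0.22, edgeR adjusted p = 0.155), and Rbbp7, a histone-binding subunit of repressor complexes (-0.37, SE 0.12, edgeR adjusted p = 0.168). Both had fasted values below all control values, as did 12.9% of genes tested. The highest belonged to Id2 and Id3, whose products block E proteins, at 0.72 (SE 0.38) and 0.65 (SE 0.94), and Id3 ranged from 2.92 CPM in control library 1 to 44.6 CPM in control library 3. In the fit over all filtered genes, 3 of 31 partner genes were called lower, Lmo4 and Rbbp7 among them, and 3.82% of all genes. The median there was 0.32 over all genes and -0.50 over the genes above background. The share called lower among genes above background alone was not computed. Cbfa2t3 (ETO2), the corepressor bound to the TAL1 complex, had a log2 ratio to Tal1 of 0.84 in control library 1 and between -0.40 and 0.29 in the other 5 libraries.

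Of 28 other blood transcription factors, 26 were tested and none was called, with 12 higher, 14 lower and a median of -0.04. Fli1, which favours the megakaryocyte path over the erythroid one and opposes KLF1, was the lowest. It had 124, 100.3 and 122 CPM in controls and 83.0, 68.4 and 43.0 CPM in fasted libraries. Every fasted value lay below every control value, as in 12.9% of genes tested. The log2 fold change of Fli1 was -0.84 (SE 0.23, edgeR unadjusted p = 0.00503 and adjusted p = 0.147). The log2 ratio of Fli1 to Klf1 was -3.67, -3.65 and -2.15 in controls and -3.45, -3.84 and -5.02 after fasting, a difference of -0.95 with overlapping groups (p = 0.4, two-sided exact permutation test, adjusted p = 0.9 over 9 ratios). Myc had -0.83 (SE 0.42), with 1037 CPM in control library 1 and 277 to 415 CPM in the other 5. Klf2 had 2.78 CPM in control library 1 against 49.8 to 85.6 CPM in the other 5 (log2 fold change 1.17, SE 0.96), and Bach1, a haem-regulated repressor, had 0.83 (SE 0.26, edgeR adjusted p = 0.163). The fit over all filtered genes called 5 of the 28 lower, Fli1 among them, and 3.82% of all genes. Its median was 0.32 over all genes and -0.50 over the genes above background. The share called lower among genes above background alone was not computed. Gfi1, the myeloid and stem cell relative of Gfi1b, was at 1.45 times background, and background at the measured rate would exceed its fasted counts. Its ratio to Gfi1b is 1 of the 9 computed, and nothing is read from it.

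Genes known to be turned on by GATA1, TAL1 or KLF1 in red cells had mostly higher values after fasting. Of 32 erythroid target genes tested, 28 had higher means after fasting and 4 lower, against 5564 higher and 5071 lower among all genes tested, and none was called. Their median log2 fold change was 0.40, and it stayed between 0.24 and 0.52 with 1 library left out in turn. With factors from all filtered genes the median of 35 targets was -0.12, above the -0.50 of the genes above background in that fit. The 35 included Slc4a1, Epb42 and Dmtn, which are below 5 times background, so the medians are over unlike sets. Rhag, of the Rh membrane complex, was among the highest at 0.94 (SE 0.36, edgeR adjusted p = 0.228), and the lowest were Gypc (-0.26, SE 0.18) and Cdkn1b (-0.21, SE 0.17). Icam4 was listed at 0 in all 6 libraries, and all of its exons overlap an antisense gene. Of 16 granulocyte and monocyte markers, 15 were lower after fasting (median -2.06), against the direction of these targets, and none was called. For 3 of the 16 all fasted values lay below all control values, as for 12.9% of genes tested. The sum of the 16 was 4056 CPM in control library 1 and 4943 CPM in fasted library 1. The part of these markers in the result was not tested.

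Megakaryocyte targets of GATA1 had a median of -0.50 over 8 tested genes of 14, with 6 lower, 2 higher and none called. Pf4, a platelet chemokine gene, had the lowest value at -0.86 (SE 0.25, edgeR adjusted p = 0.154). Its fasted values lay below all control values, as in 12.9% of genes tested. The platelet receptor gene Gp5 followed at -0.78 (SE 0.41). Itgb3 and Gp9 had 0.29 (SE 0.20) and 0.07 (SE 0.32). The fit over all filtered genes called 3 of 13 megakaryocyte targets lower, Pf4 among them, and 3.82% of all genes. In it the median was 0.32 over all genes and -0.50 over the genes above background. The share called lower among genes above background alone was not computed. The 6 genes that GATA1 is known to turn down had a median of -0.32, with 5 lower and none called. Among them Myc (above) and Spi1 were lowest, and Spi1 had 126, 171 and 246 CPM in control and 187, 155 and 62.8 CPM in fasted libraries, with overlap (-0.43, SE 0.44). Hhex and Vim were highest, at -0.18 (SE 0.15) and 0.34 (SE 0.48).

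**Figure D5:**
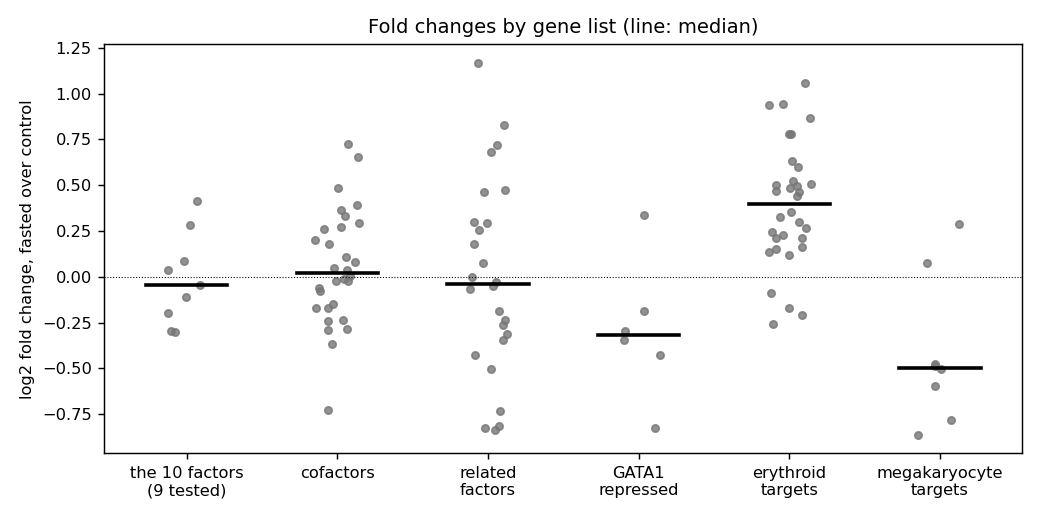
Log2 fold change of each tested gene by list, with the median as a line. The medians are -0.05 for the factors, 0.02 for partners (cofactors), -0.04 for related factors, -0.32 for genes turned down by GATA1, 0.40 for erythroid targets and -0.50 for megakaryocyte targets.

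Markers of other cells the sort could hold were measured beside these genes. Gata2 is also active in stem cells and mast cells, and Lmo2 and Lyl1 in stem cells. The 10 mast cell and basophil markers, 5 of them above 5 times background, summed to 226 to 325 CPM in control and 161 to 209 CPM in fasted libraries. The 5 above it were Cpa3, Ms4a2, Hdc, Mcpt8 and Prss34, and the 5 below it were Fcer1a, Cma1, Mcpt4, Tpsb2 and Tpsab1. Of the 9 stem and multipotent progenitor markers, Hlf, Mecom and Procr were below 5 times background. The 9 summed to 981, 819 and 1072 CPM in control and 999, 944 and 544 CPM in fasted libraries 1, 2 and 3. Their sum was lowest in fasted library 3, where Gata2 was lowest too. It was highest in control library 3, where Gata2, at 153 CPM, was the lowest of the controls. B lymphocyte markers (7, of which Ebf1 and Pax5 were below 5 times background) summed to 69.9 to 129 CPM in control and 98.7 to 239 CPM in fasted libraries. T lymphocyte markers (6, of which 4 were below 5 times background) summed to 33.9 to 39.4 and 52.8 to 67.4 CPM. No marker was at 0 counts over the 6 libraries, and the part of these cells in the values of the factor genes was not tested.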

How the data were processed

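The authors deposited raw counts per gene with exonic lengths, made with HISAT2 2.2.1 and featureCounts 2.0.1 on GRCm38, per the submitters' processing notes. Annotation, strand setting and read filters are not given in the sources used here. Of 55487 identifiers, 54435 matched GENCODE M21 with version, all with the same exonic length. Klf1 and Lyl1 matched under another version (lengths 1534 deposited and 1530 in M21, and 2033 and 1800).

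Background was the summed counts over summed length of 1422 odorant and vomeronasal receptor genes. Genes kept by filterByExpr with a mean of at least 5 times background were fitted with edgeR 4.0.16 (R 4.3.3; TMM, robust glmQLFit, group as the only term), with Benjamini-Hochberg adjustment over all 10635. SE was the log2 fold change over the root of F, and intervals used the fit's degrees of freedom. The fit of all filterByExpr genes, DESeq2 1.42.0 and limma 3.58.1 were among the alternatives. Likeness used log2(CPM + 0.5). Ratios used exact permutation in scipy 1.17.1. The code was tested on simulated data: with a dispersion of 0.1, 188 of 200 genes changed 4-fold were called among 10635 genes, and with 0.3 only 18 of 200. Of the unchanged genes, 8 were called with 0.1 and 0 with 0.3. Each setting used the same dispersion for all genes. The dispersion of the real libraries is not given here, so these counts do not tell how many changes the main test missed.

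Members, lists and the background limit were chosen with earlier results of these data known. All members are named. From other lists the 2 highest and 2 lowest are named, and for Gata1 and Gata2 the 4 closest genes, except 2 genes that are not reported here. Cbfa2t3 and Gfi1 are named for their ratios, and Icam4 was chosen after its values were seen. Of 37 erythroid targets, Ahsp was not analysed here. Same-numbered control and fasted libraries did not deviate together (correlations -0.170, 0.141 and -0.330), so numbers were not taken as pairs.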

Additional observations from a re-analysis of the deposited data

How the results depend on the processing

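Of the factor genes, none passed in the main test, and none did with RLE factors, library totals alone, DESeq2, limma-voom, 10 times background, background subtracted, the replicate block or any single library left out. The count of called genes in the table was 0 in the main test, 0 to 3 with 1 library left out, 502 with DESeq2, 1614 at 2 times background, 1813 over all filtered genes, 5245 over the same genes with factors from genes above background and 2849 with no filter on low counts. Lyl1 passed over all filtered genes (-0.83), at 2 times background (-0.65) and with no filter (-0.87), and Gata2 with no filter (-0.87). These 3 fits take their factors from more genes near background.

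Signs changed as follows (log2 fold change, fasted against control), and where no other value is given the cause was not tested. Over all filtered genes Tal1 was -0.24, Lmo2 -0.46, Ldb1 -0.46 and Tcf3 -0.0724. At 2 times background Tal1 was -0.0607, Lmo2 -0.30, Ldb1 -0.27 and Zfpm1 0.16. With no filter on low counts Tal1 was -0.27, Lmo2 -0.50, Ldb1 -0.50 and Tcf3 -0.11. Zfpm1 was 0.53 with factors from genes above background. Klf1 was 0.0417 at 10 times background, 0.0689 with limma-voom and 0.0420 with background subtracted, and Gfi1b was 0.0596 with limma-voom. With the replicate block, Klf1 was 0.0464, Gfi1b 0.0333 and Zfpm1 0.0299, the count of called genes stayed at 0, and it changed no call.

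Medians moved in the 3 fits with more genes near background. Over all filtered genes, at 2 times background and with no filter they were -0.55, -0.36 and -0.59 for the factor genes, -0.49, -0.31 and -0.52 for partners (cofactors list), -0.53, -0.36 and -0.56 for related factors, -0.12, 0.0729 and -0.15 for erythroid targets and -0.87, -0.67 and -0.91 for genes turned down by GATA1 (GATA1 repressed list). 

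With 1 library left out, the log2 fold change ranged from -0.51 to 0.12 for Gata1, -0.53 to -0.12 for Gata2, -0.41 to 0.28 for Klf1, 0.18 to 0.40 for Tal1, -0.30 to 0.25 for Zfpm1, -0.13 to 0.18 for Lmo2, -0.0598 to 0.27 for Ldb1, -0.52 to 0.28 for Gfi1b, -0.40 to -0.23 for Lyl1 and 0.19 to 0.54 for Tcf3. The median ranged from -0.39 (without control library 3) to 0.19 (without control library 1) for the factor genes, -0.16 to -0.00469 for related factors, -0.65 to -0.25 for megakaryocyte targets, -0.46 to -0.17 for genes turned down by GATA1 and -0.0171 to 0.0689 for cofactors. Ratio differences ranged from -0.41 to 0.13 for Gata2/Gata1, -0.40 to 0.16 for Lmo2/Ldb1, -0.51 to 0.0645 for Cbfa2t3/Tal1, -0.93 to 0.21 for Spi1/Gata1 and 0.54 to 0.78 for Zfpm1/Gata1. That of Gfi1/Gfi1b, from which nothing is read because Gfi1 is near background, went from -1.38 to 0.64, and was -5.30 with background subtracted (p = 0.1, exact permutation test). Zfpm1 was in too few counts for the fits restricted to genes above 5 or 10 times background, so its values are from the fits that held it.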
